A study of Mus musculus with 31 samples.

Results

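Laminins are the heterotrimeric glycoproteins on which basement membranes are assembled, and integrins are the alpha-beta heterodimers through which most cells bind them. The 33 genes described here were chosen by name from the 47729 genes listed in the count table. They comprise 10 laminin chain genes (Lama1 to Lama5, Lamb1 to Lamb3, Lamc1 and Lamc3), 4 genes for laminin-binding linkers (Nid1, Nid2, Hspg2 and Agrn), Dag1, and 12 integrin alpha and 6 integrin beta subunit genes. All 33 identifiers were found, and all 33 passed the filter on low counts in both fits used below.

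In a peripheral nerve, glia, endothelial cells and perineurial cells each lay a basement membrane in which a laminin network is joined to type IV collagen by nidogens and perlecan. Cells hold on to it through integrins and through dystroglycan, whose glycans bind laminin outside the cell while its partners bind the cytoskeleton within. Myelinating Schwann cells need laminin to sort and ensheath axons, whereas olfactory ensheathing cells (OECs), the glia of the olfactory nerve and of the olfactory nerve layer (ONL) around the olfactory bulb, ensheath bundles of unmyelinated axons.

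The counts came from 31 SMART-seq libraries of laser-microdissected nerve regions of mouse embryos. The tissue was flash-frozen and sectioned from embryos carrying a Sox10:Histone2BVenus transgene, a nuclear fluorescent reporter under Sox10 control that every group shared, and each sample pooled pieces from several sections. By label there were 4 libraries of olfactory nerve at E11.5, 7 of olfactory nerve and 5 of ONL at E13.5, and, at E16.5, 4 each of olfactory nerve, outer ONL and inner ONL and 3 of trigeminal nerve. Libraries at E16.5 came from different embryos within a group, but at E11.5 and E13.5 some pieces shared an embryo that is not named, so p-values of comparisons with those stages are too small. Across groups at E16.5, the paper took olfactory and trigeminal pieces from the same sections, so the groups shared embryos. The labels do not name these embryos, and the main fit has no term for them. A fit with the replicate number as a block is given among the alternatives.

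The labels of 10 early libraries went against the study's own table of group means, whereas those of 18 others did not, and the 3 trigeminal nerve libraries were not part of that check. With the libraries labelled E11.5 olfactory nerve 1 to 4 and E13.5 olfactory nerve 1 taken as E13.5 ONL (n = 5), those labelled E13.5 olfactory nerve 2 to 7 and E13.5 ONL 1 as E13.5 olfactory nerve (n = 7), and those labelled E13.5 ONL 2 to 5 as E11.5 olfactory nerve (n = 4), every early mean was met to within 0.000876% over 1356 to 1422 genes a group. That match is of the pattern over genes, since each group was brought to a common scale and trigeminal nerve means served as reference. With groups by label, the median difference was 25.33% for E13.5 ONL, 3.225% for E13.5 olfactory nerve and 28.31% for E11.5 olfactory nerve. Early libraries are grouped as in the mean table here, and the outcome by label is given beside each comparison of the 33 genes that uses them. No comparison within E16.5 depends on it.

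Libraries held 3512627 to 36705535 counts, with 30221586 to 32508725 in trigeminal nerve and 13379107 to 16800784 in the other E16.5 groups. Levels are CPM, that is, counts brought to a common library total after edgeR's TMM scaling, written as mean ± SD. Differences are log2 fold changes ± SE from edgeR's quasi-likelihood test, with p-values adjusted over all genes tested and called at an adjusted p under 0.05. Marker lists went with the labels at E16.5: 6 glial genes summed to 18406 to 32508 CPM in outer ONL and 1653 to 3896 in olfactory nerve, and 5 Schwann cell myelin genes to 2637 to 3902 CPM in trigeminal nerve and at most 491 in any library of the other E16.5 groups. At early stages they did not: by label, olfactory bulb neuron markers summed to 1084 to 1507 CPM in E11.5 olfactory nerve. By label they summed to 1.38 to 1239 CPM in E13.5 olfactory nerve and 4.14 to 11.7 in E13.5 ONL. The paper has the bulb morphologically distinct from E12.5. The pieces also held other cells. Markers of several of them are given beside the results, though not every marker list in every comparison. In bulk tissue, fewer cells of a type and less RNA per cell cannot be told apart.

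The heat map of all 33 genes shows how the levels lay across the libraries. Itgb1, the beta subunit that pairs with most alpha subunits, was high throughout, and Itgb6, Itga10 and Lamb3 stayed under 10 CPM in every library.

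**Figure D1:**
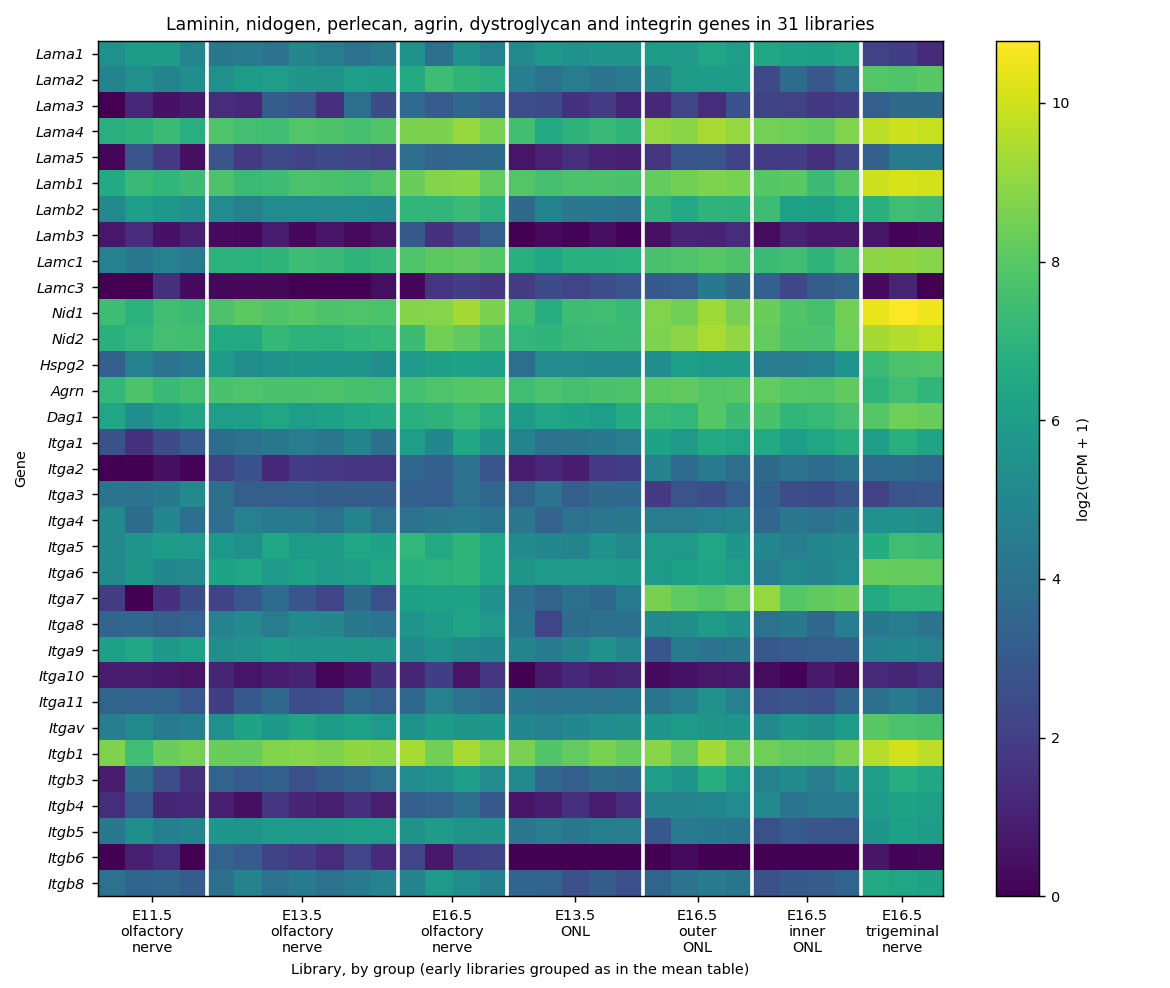
Level of each of the 33 genes (rows, by role) in each of the 31 libraries (columns, by group, with early libraries grouped as in the mean table), as log2(CPM + 1) (colour scale). Itga7 is brighter in the 8 E16.5 ONL libraries than in any other, Lama1 is dark in the 3 trigeminal nerve libraries, and Lamc1 is darker in the 4 E11.5 libraries than at later stages.

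Compared per kilobase of exon, the only scale on which levels of different genes are set side by side here, Itgb1, Nid1 and Nid2 were among the first 4 of the 33 genes in each tissue at E16.5. Itgb1 stood first in olfactory nerve (129 CPM per kb), outer ONL (105) and inner ONL (79.8), and second in trigeminal nerve (217). Nid1, a nidogen that links laminin to collagen IV, stood first in trigeminal nerve at 221 CPM per kb. Among the alpha subunits Itga7, which with Itgb1 forms a laminin receptor, led in outer ONL (36.5 CPM per kb) and inner ONL (42.8), whereas Itga6, another laminin receptor subunit, led in trigeminal nerve (33.4) and Itga5, a fibronectin receptor subunit, in olfactory nerve (22.5).

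Lama4, the alpha chain of vascular and Schwann cell laminins, made up most of the alpha chain signal in every group. Of the summed CPM per kb of the 5 alpha chain genes it held 73.1 ± 2.02% in olfactory nerve, 81.4 ± 2.42% in outer ONL, 76.5 ± 0.889% in inner ONL and 81.2 ± 1.46% in trigeminal nerve at E16.5. The tissues differed in the next most abundant chain. Lama1, the alpha chain of early embryonic laminin, held 20.6 ± 1.37% in inner ONL, 11.7 ± 0.326% in outer ONL and 6.76 ± 2.94% in olfactory nerve, but 0.285 ± 0.117% in trigeminal nerve. Lama2, the alpha chain of mature Schwann cell and muscle laminin, held 15.9 ± 1.71% in trigeminal nerve, 16.1 ± 4.47% in olfactory nerve, 5.66 ± 1.74% in outer ONL and 1.49 ± 0.688% in inner ONL. No test was run on these shares.

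**Figure D2:**
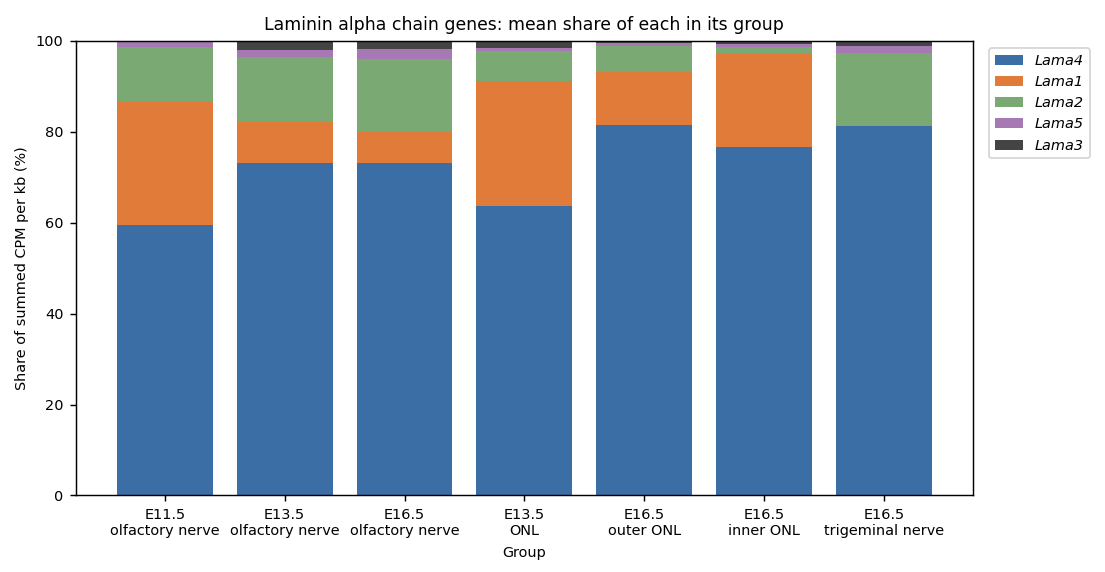
Mean share of each laminin alpha chain gene in the summed CPM per kb of the 5 alpha chain genes (y axis, percent, from 0) in the 7 groups (x axis). Lama4 fills 73.1% to 81.4% of each E16.5 bar, and the Lama1 segment, 20.6% in inner ONL, is almost absent from trigeminal nerve.

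Among beta chains, Lamb1 held 81.2 ± 2.64% of the summed CPM per kb in trigeminal nerve and 61.6 ± 3.68% in olfactory nerve, with Lamb2, the beta chain of synaptic and mature basement membranes, making up nearly all the rest. Of the gamma pair, Lamc3 held 6.58 ± 2.35% in outer ONL and 6.15 ± 2.19% in inner ONL, against 0.957 ± 0.607% in olfactory nerve and 0.131 ± 0.168% in trigeminal nerve.

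The first question was how OECs of the ONL differ from those along the olfactory nerve. At E16.5, 6 members were higher and 12 lower in outer ONL than in nerve, against a background of 25.7% of 17800 genes called (10.3% higher, 15.4% lower). The median log2 fold change of the 33 genes was -0.24, beside -0.05 over all genes. Laminin alpha chains split: Lama1 was higher in outer ONL, and Lama2, Lama3 and Lama5 were lower. Among receptors, Itga7, Itgb4 and Itga2 were higher, and Itga9, Itgb5, Itgb8, Itga6 and Itga5 were among those lower.

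Itga7 (chromosome 10, 128933818 to 128958282, plus strand, GRCm38) had 381, 273, 238 and 289 CPM in outer ONL replicates 1 to 4 and 69.7, 70.1, 72.4 and 41.7 CPM in olfactory nerve. The groups did not overlap, with every ONL library over 3 times the highest nerve library, and the log2 fold change was 2.16 ± 0.23 (adjusted p = 2.83e-06). Itgb4, whose protein pairs with the Itga6 product in hemidesmosomes and in Schwann cells, stood at 27.5, 27.1, 29.7 and 35.8 CPM in outer ONL and at 8.59, 9.63, 14.3 and 7.17 in olfactory nerve. Again no library of one group reached the other (log2 fold change 1.54 ± 0.23, adjusted p = 7.23e-05).

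Lamc3 (chromosome 2, 31887291 to 31946539, plus strand), a gamma chain found in few basement membranes, had 7.36, 8.35, 19.7 and 12.4 CPM in outer ONL and 0.125, 2.1, 3.05 and 2.26 in olfactory nerve. All ONL libraries were above all nerve libraries, although Lamc3 was low in both, and the log2 fold change was 2.60 ± 0.71 (adjusted p = 0.0109). The values of Lama1 (chromosome 17, 67697259 to 67822647, plus strand) were 58.0, 54.4, 78.9 and 63.1 CPM in outer ONL and 45.8, 14.1, 45.9 and 26.0 in olfactory nerve. These did not overlap, but the call was narrow: the log2 fold change was 0.89 ± 0.29 (adjusted p = 0.0306), and the adjusted p rose to between 0.0569 and 0.0795 when any 1 of olfactory nerve replicates 2 and 4 and outer ONL replicates 3 and 4 was left out.

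Nid2, the second nidogen, was also higher, at 524 ± 112 CPM against 253 ± 82.5, without overlap (log2 fold change 0.99 ± 0.22, adjusted p = 0.00281), whereas its paralogue Nid1 stood at 445 ± 115 and 484 ± 109.8 CPM and was not called. Part of the Nid2 exons lies opposite Rtraf and part of the Lamc3 exons opposite Gm13441, and the source used here does not say whether counting used strand. Itga2, a collagen and laminin receptor subunit, stood at 18.7 ± 6.89 against 10.4 ± 4.10 CPM with overlapping libraries (log2 fold change 0.79 ± 0.28, adjusted p = 0.0444). The adjusted p of Itga2 lay between 0.0745 and 0.142 when any 1 of olfactory nerve replicates 1, 2 and 4 and outer ONL replicates 1 and 3 was left out.

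On the other side, Lama2 had 29.1, 58.4, 59.3 and 58.8 CPM in outer ONL and 96.1, 172, 134 and 114 in olfactory nerve. Outer ONL replicate 1 was well below its fellows, and all 4 lay below the nerve libraries (log2 fold change -1.38 ± 0.31, adjusted p = 0.00273). Itgb5, a beta subunit that pairs with the Itgav product to bind vitronectin, had 6.83, 19.9, 19.8 and 17.1 CPM in outer ONL against 44.8, 59.9, 47.3 and 43.6 in olfactory nerve. That difference was among the best supported of those lower in outer ONL (log2 fold change -1.67 ± 0.27, adjusted p = 0.00016).

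The epithelial alpha chain genes were low but separated. Lama5 had 2.05, 6.32, 6.17 and 3.53 CPM in outer ONL and 14.1, 10.5, 11.6 and 12.3 in olfactory nerve (log2 fold change -1.47 ± 0.35, adjusted p = 0.00481). Lama3 stood at 1.37, 3.73, 1.68 and 5.48 against 12.7, 7.78, 11.3 and 8.21 CPM (log2 fold change -1.74 ± 0.37, adjusted p = 0.00185). Lamb3, which with Lama3 forms the laminin of epithelial hemidesmosomes, had 0.379, 1.14, 1.12 and 1.58 CPM against 7.21, 1.91, 3.91 and 8.71 (log2 fold change -2.40 ± 0.59, adjusted p = 0.00549). In none of the 3 genes did a library of outer ONL reach one of olfactory nerve.

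Summed epithelial markers (Epcam, Cdh1, Krt8, Krt18, Krt5 and Trp63) were also lower in outer ONL, at 10.2 to 15.2 CPM against 145 to 499.5 in olfactory nerve. In trigeminal nerve they summed to 19.9 to 31.7 CPM, where of these 3 genes Lamb3 alone was low too, as given below. All 6 markers were lower in outer ONL than in olfactory nerve by the same test, and Krt5 was at 3 counts or fewer in every outer ONL library. Mural cell markers, 7 of 8 of which were lower in outer ONL, summed to 302 to 549 CPM there and 829 to 3009 in olfactory nerve. Mesenchymal markers, 5 of 7 of which were lower, summed to 4603 to 8839 and 7522 to 13522 CPM, while glial markers, 5 of 6 of which were higher, summed to 18406 to 32508 and 1653 to 3896. All 6 macrophage, 3 of 4 cartilage and 3 of 7 endothelial markers were lower in outer ONL too, with none higher. Of 6 olfactory sensory neuron markers, 2 were lower and none higher. The part of these cells in the results was not tested.

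Itga9, whose protein binds tenascin and osteopontin, was lower too, at 15.3 ± 6.27 against 36.0 ± 6.0 CPM (log2 fold change -1.28 ± 0.27, adjusted p = 0.00195). The other 6 genes lower in outer ONL (Itga3, Itga5, Itga6, Itga10, Itgb6 and Itgb8) had log2 fold changes of -5.30 to -0.78, the largest being that of Itgb6, which stood at 2.77 ± 1.46 CPM in olfactory nerve and had 0 in 3 of 4 outer ONL libraries. Itga3, Itga5 and Itga10 overlapped between the groups.

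**Figure D3:**
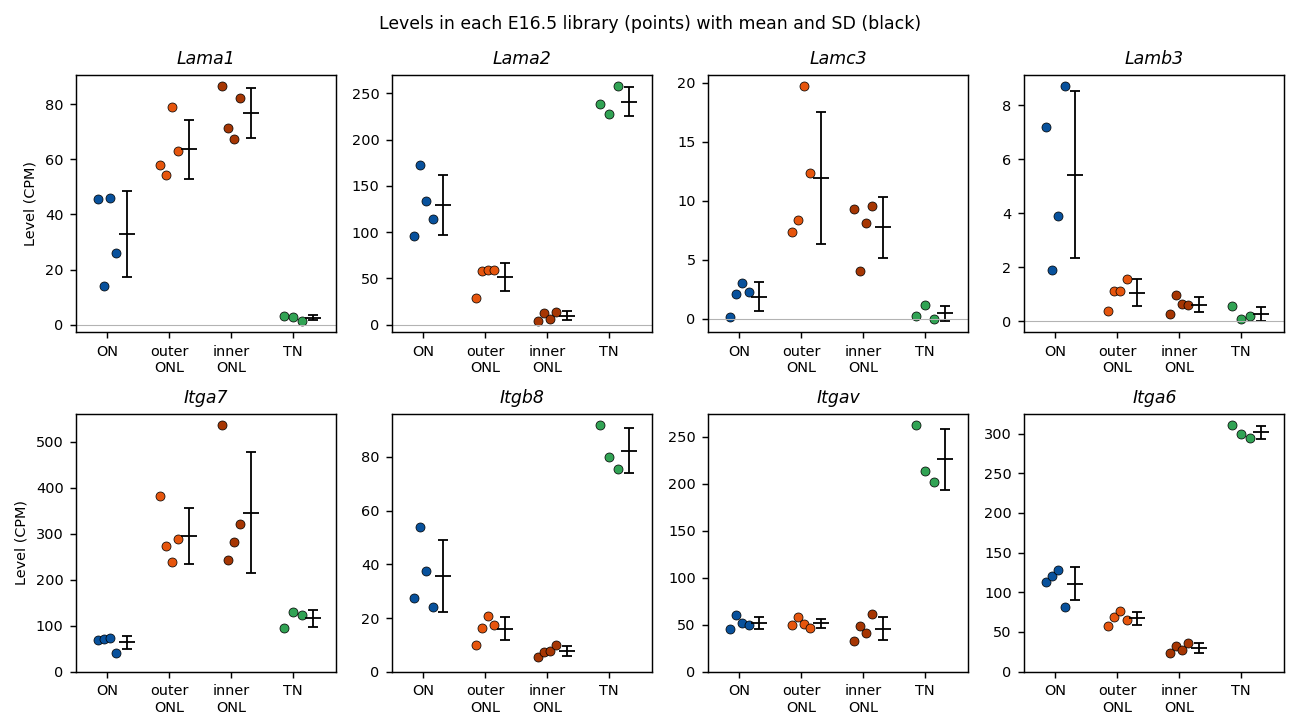
Level in CPM (y axes, linear) of 8 genes in each E16.5 library (points) of olfactory nerve (ON, n = 4), outer ONL (n = 4), inner ONL (n = 4) and trigeminal nerve (TN, n = 3), with mean and SD in black. Itga7 and Lama1 are highest in the 2 ONL layers, Lama2 falls from nerve to outer to inner ONL, and Itgb8, Itgav and Itga6 are highest in the 3 trigeminal nerve libraries.

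The second question was how the glia of the olfactory system differ from Schwann cells, for which trigeminal nerve was the reference. Between outer ONL and trigeminal nerve, 6 members were higher and 18 lower in outer ONL, with 31.3% of all genes called (15.1% higher, 16.2% lower). Between olfactory nerve and trigeminal nerve, 6 were higher and 15 lower in olfactory nerve, with 26.9% of all genes called (15.2% higher, 11.7% lower). The median log2 fold changes of the 33 genes were -0.82 and -0.47, against -0.0039 and 0.03 over all genes. The 2 comparisons share the trigeminal nerve libraries, so their values are given side by side and are not independent.

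Lama1 was close to absent from trigeminal nerve, with 3.27, 2.89 and 1.47 CPM, below every library of the other tissues. The log2 fold change was 4.66 ± 0.39 in outer ONL (adjusted p = 9.3e-08) and 3.77 ± 0.37 in olfactory nerve (adjusted p = 1.33e-06). Lamc3 had 0.258, 1.19 and 0 CPM in trigeminal nerve, and outer ONL was higher by a log2 fold change of 4.64 ± 0.89 (adjusted p = 0.000615). For olfactory nerve, Lamc3 was not called.

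Lamb3 had 0.552, 0.0741 and 0.188 CPM in trigeminal nerve, below all olfactory nerve libraries (log2 fold change 4.37 ± 0.73 in olfactory nerve, adjusted p = 0.000232). Itga8, whose protein binds nephronectin and fibronectin, had 19.3, 21.9 and 16.2 CPM in trigeminal nerve, 32.8, 39, 57.3 and 44.2 in outer ONL, and 47.1, 59.6, 77.4 and 55.3 in olfactory nerve. Its log2 fold change against trigeminal nerve was 1.21 ± 0.26 in outer ONL (adjusted p = 0.00156) and 1.73 ± 0.26 in olfactory nerve (adjusted p = 8.84e-05). Agrn, a heparan sulphate proteoglycan that clusters acetylcholine receptors and binds laminin and dystroglycan, stood at 259.7 ± 21.5, 227 ± 28.4 and 147 ± 28.0 CPM in outer ONL, olfactory nerve and trigeminal nerve (log2 fold changes 0.84 ± 0.15 and 0.71 ± 0.15, adjusted p = 0.00037 and 0.00183).

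Itga7 was not simply a gene of olfactory tissue. It had 93.9, 129 and 124 CPM in trigeminal nerve, below every outer ONL library (log2 fold change 1.37 ± 0.25, adjusted p = 0.000356) and above every olfactory nerve library, whose mean was 63.5 ± 14.6 CPM. Itga3, whose protein pairs with the Itgb1 product to bind laminins with the Lama3 or Lama5 chain, was higher in olfactory nerve (11 ± 3.08 CPM) than in trigeminal nerve (5.44 ± 1.79), with a log2 fold change of 1.11 ± 0.38 (adjusted p = 0.0377). That call was lost, with adjusted p between 0.0657 and 0.159, when any 1 of olfactory nerve replicates 3 and 4 and trigeminal nerve replicates 1 and 2 was left out.

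Higher in trigeminal nerve were the main nerve laminin chains, both nidogens, perlecan, dystroglycan and several integrins. Nid1 had 1371, 1762 and 1473 CPM there, 426, 362, 613 and 378 in outer ONL, and 438, 452, 646 and 401 in olfactory nerve. All 3 trigeminal nerve libraries were more than 2 times the highest olfactory library (log2 fold change in olfactory nerve -1.58 ± 0.22, adjusted p = 3.91e-05). Hspg2, which encodes perlecan, had 160.3, 220.1 and 222 CPM in trigeminal nerve, 38.0, 66.3, 57.8 and 62.2 in outer ONL, and 54.9, 69.0, 76.0 and 63.3 in olfactory nerve, again without overlap (log2 fold change in olfactory nerve -1.52 ± 0.25, adjusted p = 0.000165).

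Lamb1 stood at 1059 ± 51.9 CPM in trigeminal nerve and at 382 ± 82.7 in olfactory nerve and 367 ± 46.9 in outer ONL (log2 fold change in olfactory nerve -1.39 ± 0.18, adjusted p = 2.11e-05). Nid2 was lower in olfactory nerve than in trigeminal nerve, where it stood at 756 ± 111 CPM (log2 fold change -1.49 ± 0.24, adjusted p = 0.000133), but was not called between outer ONL and trigeminal nerve. Lama4 at 914 ± 81.4, Lamc1 at 481 ± 23.2 and Dag1 at 302 ± 49.7 CPM in trigeminal nerve lay above every library of outer ONL and of olfactory nerve.

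Among receptors, Itgav, the alpha subunit of vitronectin and fibronectin receptors, had 263, 213 and 201 CPM in trigeminal nerve and did not separate outer ONL (49.7, 58.2, 50.8 and 46.3) from olfactory nerve (45.4, 59.9, 52.0 and 49.8). Its log2 fold change against trigeminal nerve was -2.12 ± 0.19 in outer ONL (adjusted p = 2.19e-07) and -2.04 ± 0.19 in olfactory nerve (adjusted p = 6.35e-07). Itgb8, whose product pairs with that of Itgav and activates latent TGF-beta, had 91.8, 79.8 and 75.6 CPM in trigeminal nerve, 27.5, 54.0, 37.5 and 24.0 in olfactory nerve, and 10.01, 16.2, 20.6 and 17.5 in outer ONL. These 3 tissues formed separate levels, with a log2 fold change of -2.33 ± 0.28 in outer ONL against trigeminal nerve (adjusted p = 6.63e-06).

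Itga6 had 311, 300 and 295 CPM in trigeminal nerve, 112, 120, 129 and 81.3 in olfactory nerve, and 57.6, 68.8, 76.6 and 65.0 in outer ONL, so its order followed that of Itgb8 (log2 fold change in outer ONL -2.14 ± 0.18, adjusted p = 7.96e-08). Its partner Itgb4 did not: at 61.5, 74.1 and 68.3 CPM in trigeminal nerve it was lowest in olfactory nerve (log2 fold change -2.70 ± 0.24, adjusted p = 4.63e-07). Itgb4 was also called lower in outer ONL than in trigeminal nerve. Lama2 had 238, 227 and 258 CPM in trigeminal nerve, above all other libraries, and was called against outer ONL (log2 fold change -2.20 ± 0.33, adjusted p = 5.74e-05) but not against olfactory nerve. Lama5 (8.83, 21.6 and 21.2 CPM in trigeminal nerve) and Itgb5 (49.0, 68.9 and 61.9) were also called against outer ONL, with log2 fold changes of -1.89 ± 0.37 (adjusted p = 0.000804) and -1.88 ± 0.28 (adjusted p = 5.62e-05), and not against olfactory nerve. Lama3 stood at 8.43, 12.2 and 12.3 CPM in trigeminal nerve, and overlapped olfactory nerve.

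The other called genes were given no fold change of their own. Against trigeminal nerve they were 12 lower in outer ONL (log2 fold changes -1.81 to -0.71) and 9 lower in olfactory nerve (-1.36 to -0.67), with Lamb3 in outer ONL and Itgb6 in olfactory nerve higher from means of 1.06 and 2.77 CPM. Lamb2 and Itga1, a collagen and laminin receptor subunit, were called in none of the 4 comparisons at E16.5. Lamb2 stood at 139 ± 17.8, 118 ± 18.4, 101 ± 47.9 and 152 ± 32.5 CPM in olfactory nerve, outer ONL, inner ONL and trigeminal nerve, and Itga1 at 57.6 ± 22.8, 77.1 ± 16.2, 86.1 ± 17.4 and 84.3 ± 22.4.

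Cell markers differed between these nerves as well. Glial markers summed to 1409 to 1694 CPM in trigeminal nerve, 1653 to 3896 in olfactory nerve and 18406 to 32508 in outer ONL. Of the 6, 3 were higher and none lower in outer ONL, and 1 higher and 2 lower in olfactory nerve. In olfactory against trigeminal nerve the median log2 fold change of these 6 was -0.51, so their sum and their median differ in direction. Of 6 epithelial markers, 2 were higher and 2 lower in outer ONL, and 5 higher and none lower in olfactory nerve. Mesenchymal markers summed to 16982 to 20950 CPM in trigeminal nerve, 7522 to 13522 in olfactory nerve and 4603 to 8839 in outer ONL. Of the 7, 4 were lower and none higher in outer ONL than in trigeminal nerve, but 1 was higher and 2 lower in olfactory than in trigeminal nerve, with a median log2 fold change of 0.47, so their sum and their median differ in direction there. Mural cell markers summed to 1067 to 1886 CPM in trigeminal nerve, with 7 of 8 lower in outer ONL, and 1 higher and 3 lower in olfactory nerve. Of endothelial and macrophage markers 4 of 7 and 4 of 6 were lower in outer ONL than in trigeminal nerve, and none and 1 were called, the latter higher, in olfactory nerve. Skeletal muscle markers summed to 96.4 to 154 CPM in trigeminal nerve and at most 16.1 elsewhere at E16.5. Bone markers summed to 98.3 to 845 CPM in trigeminal nerve and at most 40.7 elsewhere. Of 6 olfactory sensory neuron markers, 4 were higher in outer ONL and 5 in olfactory nerve than in trigeminal nerve, with none lower. Of 4 cartilage markers, 1 was higher in outer ONL and 3 in olfactory nerve, with none lower. Schwann cell myelin genes summed to 2637 to 3902 CPM in trigeminal nerve, with all 5 higher there than in either olfactory tissue. The part of all these cells in the differences from trigeminal nerve, in either direction, was not tested. Scaling by total count alone, without TMM factors, shifted the all-gene median (log2) to 0.13 between outer ONL and trigeminal nerve and to 0.22 between olfactory nerve and trigeminal nerve. The share of higher calls among all calls then went from 48.3% to 60.3% and from 56.4% to 73.8%, while the members' calls went to 6 higher and 17 lower and to 6 higher and 13 lower.

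**Figure D4:**
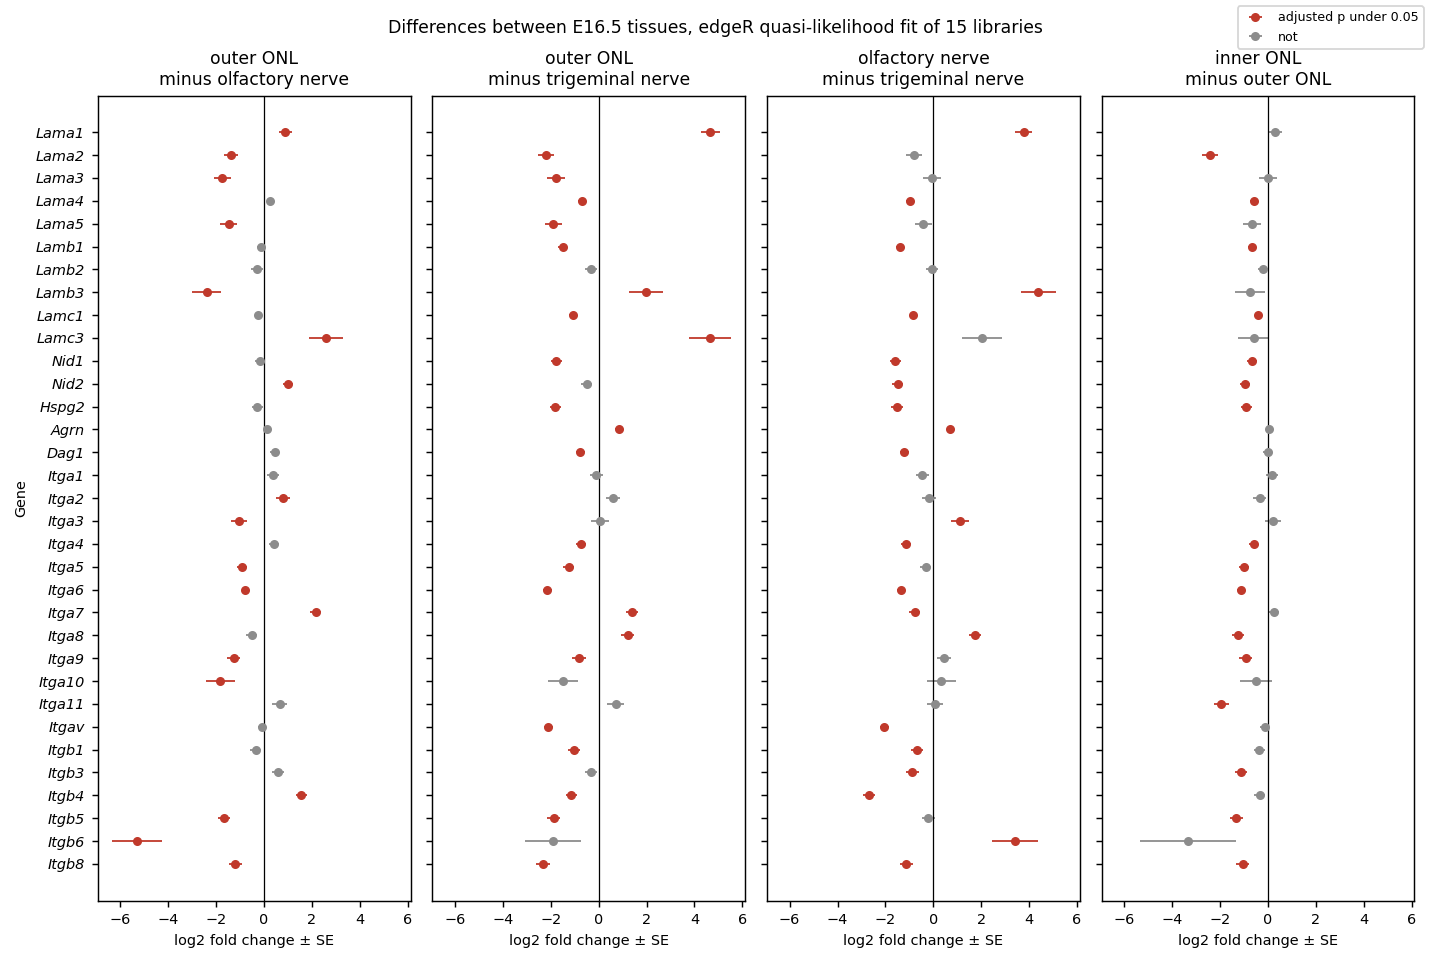
Log2 fold change ± SE (x axes) of each of the 33 genes (y axis) in the 4 comparisons at E16.5, from edgeR's quasi-likelihood fit of 15 libraries, with red for an adjusted p under 0.05. Most red points lie to the left of 0 in the 2 trigeminal nerve panels and in the inner ONL panel, with Lama1 at 4.66 and 3.77 to the right against trigeminal nerve.

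Inner and outer ONL were compared as pieces cut by position. The paper reports that this cut failed to separate inner from outer OECs by their known markers, and that inner pieces included olfactory bulb tissue. The values below therefore describe the pieces and not the OECs of each layer. No member was higher in inner ONL and 16 were lower, with 17.7% of all genes called (10.1% higher, 7.54% lower), and the median log2 fold change was -0.60, beside -0.02 over all genes.

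Lama2 fell furthest, to 4.25, 13.0, 6.56 and 13.9 CPM in inner ONL (log2 fold change -2.41 ± 0.33, adjusted p = 0.000128). Itga11, a collagen receptor subunit of fibroblasts, had 5.26, 6.26, 5.22 and 10.4 CPM in inner ONL and 16.54, 23.4, 42.2 and 24.7 in outer ONL, which did not overlap (log2 fold change -1.94 ± 0.33, adjusted p = 0.000574). Itga6 had 23.1, 32.8, 27.0 and 36.2 CPM in inner ONL, all below outer ONL (log2 fold change -1.14 ± 0.17, adjusted p = 0.000193). Itga8 had 15.9, 19.7, 11.2 and 24.4, again below every outer ONL library (log2 fold change -1.25 ± 0.24, adjusted p = 0.00128).

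Itgb5 fell to 5.26, 7.83, 6.17 and 5.94 CPM and overlapped outer ONL only through outer ONL replicate 1 (log2 fold change -1.32 ± 0.27, adjusted p = 0.00266). Itgb3, the beta subunit of platelet and endothelial vitronectin receptors, stood at 30.4 ± 7.39 against 67.7 ± 24.4 CPM, without overlap (log2 fold change -1.12 ± 0.25, adjusted p = 0.00462). The other 10, with log2 fold changes of -1.04 to -0.42, were Lama4, Lamb1, Lamc1, Nid1, Nid2, Hspg2, Itga4, Itga5, Itga9 and Itgb8.

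Itga7, Lama1, Lamc3 and Itgb4, which were higher in outer ONL than in nerve, were not called between the layers. Itga7 had 536, 244, 282 and 322 CPM in inner ONL, Lama1 86.5, 71.4, 67.4 and 82.4, Lamc3 9.31, 4.03, 8.15 and 9.58, and Itgb4 34.1, 16.8, 20.5 and 21.6, each overlapping outer ONL. Dag1 (169.6 ± 32.6 against 174 ± 47.5 CPM) and Agrn (264 ± 25.9 against 259.7 ± 21.5) were nearly level. Markers of mesenchyme (765 to 1861 CPM summed in inner ONL), mural cells (205 to 284) and endothelium (310 to 457) had lower ranges in inner than in outer ONL, with 7 of 7, 3 of 8 and 3 of 7 called lower. All 4 olfactory bulb neuron markers were higher in inner ONL, at 382 to 921 CPM summed. Olfactory sensory neuron markers summed to 1484 to 3101 CPM in inner ONL and 130 to 820 in outer ONL, with 3 of 6 higher and 2 lower. All 4 cartilage markers were lower in inner ONL. The part of all these cells in these results was not tested.

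At E13.5, ONL was compared with olfactory nerve at the stage when the ONL forms. With libraries grouped as in the mean table, 3 members were higher and 15 lower in ONL, with 31.5% of 19332 genes called (15.4% higher, 16.1% lower). By label the counts were 1 and 7, with 3421 of 19332 genes called (1717 higher, 1704 lower). Called in the same direction under both groupings were 4 members. That overlap was not counted over all genes, here or in the comparisons of stages below. The p-values are too small because pieces shared embryos.

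Lama1 had 33.8, 53.3, 45.6, 49.8 and 47.6 CPM in E13.5 ONL and 15.5 to 30.8 (median 20.1) in E13.5 olfactory nerve, without overlap (log2 fold change 1.16 ± 0.23, adjusted p = 0.000155). By label the difference was 0.75 (adjusted p = 0.067), without a call. Itga11 stood at 15.1 to 19.7 CPM against 3.04 to 11.3 (log2 fold change 1.23 ± 0.27, adjusted p = 0.000702), but by label it was 0.07 (adjusted p = 0.898). Lamc3 had 2.62 to 6.14 CPM in the 5 ONL libraries and at most 0.325 in the 7 nerve libraries, a call from a mean under 5 CPM that by label had the other sign (-1.17, adjusted p = 0.488).

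Lower in ONL was Itgb5, at 17.7 to 23.3 CPM against 47.3 to 66.0 (median 59.96) in nerve, without overlap (log2 fold change -1.46 ± 0.20, adjusted p = 1e-06). Lama2 had 15.1 to 23.3 CPM against 41.1 to 64.5 (log2 fold change -1.47 ± 0.23, adjusted p = 6.75e-06), Itgb8 5.24 to 10.5 against 14.7 to 27.5 (-1.38 ± 0.25, adjusted p = 6.05e-05) and Itgav 25.9 to 38.9 against 41.3 to 78.3 (-0.87 ± 0.17, adjusted p = 0.000105). For these 4 genes no ONL library reached a nerve library. Itga8 (log2 fold change -1.04 ± 0.26, adjusted p = 0.00212) and Itga5, a fibronectin receptor subunit (-0.88 ± 0.19, adjusted p = 0.00057), overlapped. By label, Itgb5 had a log2 fold change of -0.55 (adjusted p = 0.146), Lama2 of -0.31 (adjusted p = 0.454), Itgb8 of -0.27 (adjusted p = 0.576) and Itga5 of -0.11 (adjusted p = 0.764), so these calls rest on the grouping. Itgav (-0.88, adjusted p = 0.00757) and Itga8 (-1.21, adjusted p = 0.00481) were called by label too.

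Itgb6, which encodes an epithelial beta subunit, had no count in any of the 5 ONL libraries and 1.46 to 9.89 CPM in nerve, at least 13.7-fold higher with 3 counts per library taken as the floor. The epithelial markers summed to 227 to 455 CPM in E13.5 olfactory nerve and 3.96 to 12.1 in E13.5 ONL. Mural cell markers summed to 231 to 475 and 89.4 to 128 CPM. Of 7 mesenchymal markers 4 were lower and 2 higher in ONL, and all 4 cartilage markers were lower. Of 6 olfactory sensory neuron markers, 3 were higher and 3 lower in ONL. Olfactory bulb neuron markers, all 4 of which were higher in ONL, summed to 1084 to 1507 CPM there and 1.38 to 4.92 in nerve, and glial markers to 4304 to 6748 and 485 to 1043. The part of these cells in the results was not tested. The remaining 8 genes lower in ONL were Lama4, Lama5, Lamb2, Lamc1, Nid1, Hspg2, Itga6 and Itga9.

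Itga7 and Itgb4, both higher in outer ONL than in olfactory nerve at E16.5, were not called at E13.5. Itga7 had 9.73 to 20.2 CPM in ONL and 3.45 to 12.5 in nerve, and Itgb4 0.524 to 1.80 and 0.339 to 2.23. The ONL-nerve difference at E16.5 was tested against that at E13.5 in the same fit, where 2 members had a more positive and 1 a more negative difference at E16.5 (12.3% of all genes called, 5.59% more positive and 6.75% more negative).

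Lama4 stood at 550.2 ± 82.5 CPM in ONL and 441 ± 82.1 in nerve at E16.5, but at 138 ± 32.9 and 209 ± 23.3 at E13.5, a change in log2 difference of 0.92 ± 0.22 (adjusted p = 0.00493). Itgav, level between the tissues at E16.5 and lower in ONL at E13.5, gave 0.87 ± 0.25 (adjusted p = 0.0189). Itga3 gave -1.35 ± 0.40 (adjusted p = 0.0247), from 5.46 ± 2.40 CPM in ONL and 11 ± 3.08 in nerve at E16.5 and 11.8 ± 2.96 and 9.33 ± 2.52 at E13.5. The Itga3 value had an adjusted p of 0.0578 to 0.0676 without E16.5 outer ONL replicate 1, E16.5 olfactory nerve replicate 3 or the library labelled E11.5 olfactory nerve 2. By label, adjusted p was 0.0806 for Lama4 and 0.0802 for Itgav, and 6 members were called (Lamb3, Itga1, Itga2, Itga3, Itga7 and Itga9). Over all genes 2423 of 19332 were called by label (1320 more positive, 1103 more negative). With the grouping used here Itga7 and Itgb4 were not called (adjusted p = 0.229 and 0.065). All 4 olfactory bulb neuron markers had a more negative difference at E16.5, and their part was not tested.

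**Figure D5:**
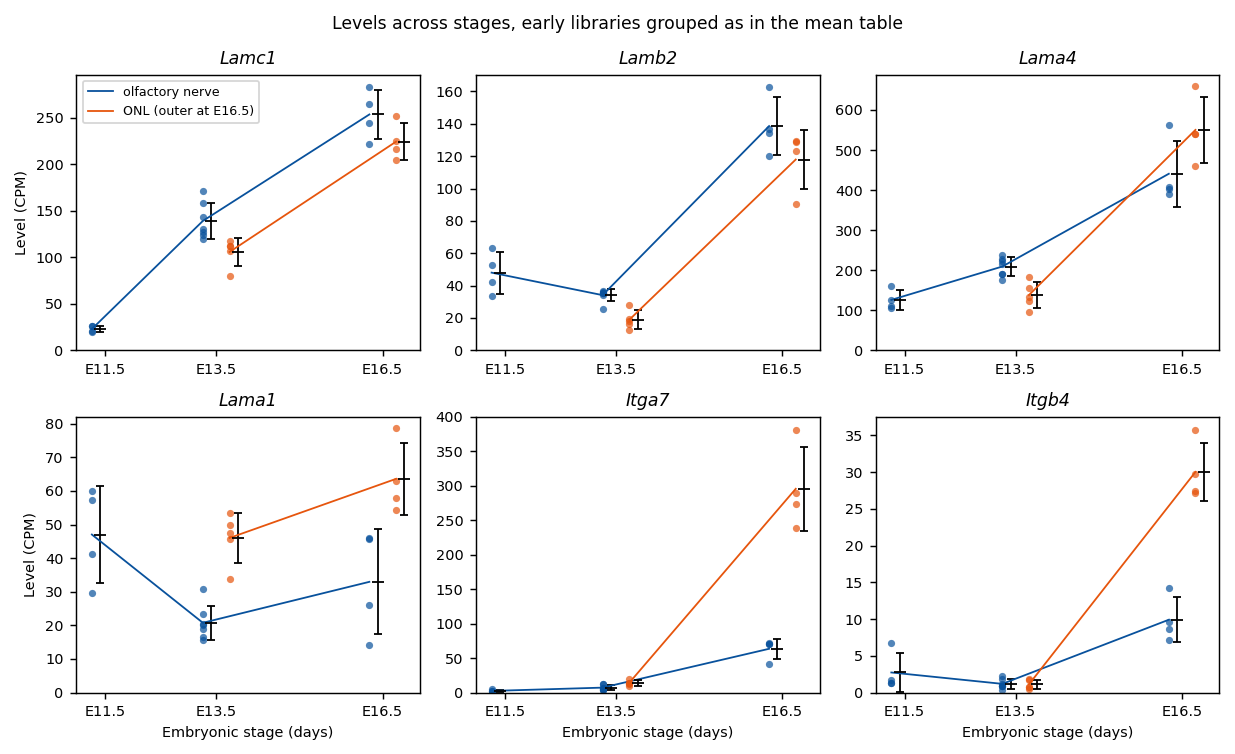
Level in CPM (y axes, from 0) of 6 genes at 3 stages (x axes, embryonic day, to scale) in olfactory nerve (blue) and ONL (orange, outer ONL at E16.5), with points for libraries (set off sideways by tissue), lines through means, and mean ± SD in black. Lamc1 rises from a mean of 22.9 CPM at E11.5, Itga7 and Itgb4 rise mostly between E13.5 and E16.5, and Lama1 in nerve is higher at E11.5 than at E13.5.

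Development along the olfactory nerve was followed from E11.5 to E16.5. Between E11.5 and E13.5, 16 members rose and 4 fell, with 36.6% of all genes called (20.2% higher, 16.4% lower at E13.5). By label the counts were 7 and 2, with 3380 of 19332 genes called (1799 higher, 1581 lower). Called in the same direction under both groupings were 7 members. The p-values are too small here as well.

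Of these rises, that of Lamc1, the gamma chain of nearly all nerve laminins, had the smallest adjusted p. The largest log2 fold change was that of Itga2 (4.81, adjusted p = 6.64e-07), from means under 5 CPM. Lamc1 had 25.7, 19.7, 25.8 and 20.5 CPM at E11.5 and 119 to 171 (median 130) at E13.5, with every E13.5 library over 4 times every E11.5 library (log2 fold change 2.61 ± 0.14, adjusted p = 4.18e-14). The other common trimer chains rose less, Lama4 from 126 ± 24.1 to 209 ± 23.3 CPM and Lamb1 from 139 ± 31.7 to 199 ± 24.9. By label, Lamc1 had a log2 fold change of 0.37 (adjusted p = 0.531) and was not called, so both the call and the size of its rise rest on the grouping.

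Hspg2 rose from 18 ± 7.10 to 47.2 ± 6.78 CPM (log2 fold change 1.40 ± 0.25, adjusted p = 4.59e-05), Itga8 from 10.05 ± 1.19 to 26.1 ± 7.17 (1.39 ± 0.28, adjusted p = 0.000248) and Itga1 from 4.88 ± 2.30 to 18.7 ± 5.09 (1.95 ± 0.29, adjusted p = 4.6e-06). None of the 3 overlapped between stages. Itga7 rose from 2.34 ± 1.97 to 7.14 ± 3.74 CPM (log2 fold change 1.62 ± 0.48, adjusted p = 0.00876) and Lama3 from 0.632 ± 0.578 to 5.33 ± 4.55 (3.07 ± 0.68, adjusted p = 0.000674), both with overlap. In a fit of these 2 groups alone the adjusted p of Itga7 was 0.123. By label, Itga8 was called at 1.08 (adjusted p = 0.0146), whereas Hspg2 was at 0.61 (adjusted p = 0.136) and Lama3 at 0.43 (adjusted p = 0.751), while Itga1 turned to -0.01 (adjusted p = 0.986) and Itga7 to -0.44 (adjusted p = 0.618).

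Lama1 fell from 47.0 ± 14.3 to 20.8 ± 5.14 CPM (log2 fold change -1.17 ± 0.24, adjusted p = 0.000294), and 1 of 4 E11.5 libraries lay within the E13.5 range. By label it was also called (-0.91, adjusted p = 0.0373). Itga3 fell from 21.4 ± 7.45 to 9.33 ± 2.52 without overlap (-1.18 ± 0.27, adjusted p = 0.000781). Itga9 fell from 68.6 ± 14.5 to 46.9 ± 4.81 (-0.54 ± 0.20, adjusted p = 0.0383), a call that was lost without any of 6 single libraries, with adjusted p between 0.0596 and 0.166. These were the libraries labelled E13.5 olfactory nerve 2, 3, 4 and 5 and E13.5 ONL 2 and 3. By label, Itga3 was at -0.27 (adjusted p = 0.61) and Itga9 turned to 0.51 (adjusted p = 0.134). The fourth gene that fell was Itgb4, from a mean of 2.73 CPM that the library labelled E13.5 ONL 3 set with 6.73 CPM. All 7 endothelial, 6 of 8 mural and 3 of 6 epithelial markers rose over the same interval, as did 6 of 7 mesenchymal markers while 1 fell, and their part was not tested.

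From E13.5 to E16.5, 22 members rose in olfactory nerve and none fell, with 28.8% of all genes called (15.2% higher, 13.6% lower). By label, 19 rose and none fell, with 4845 of 19332 genes called (2401 higher, 2444 lower), and all 19 were among the 22. Itga7 rose from 3.45 to 12.5 CPM (median 6.31) to 41.7 to 72.4, a log2 fold change of 3.13 ± 0.42 (adjusted p = 2.41e-06). Lamb2 rose from 25.8 to 36.6 CPM (median 35.3) to 139 ± 17.8 (2.002 ± 0.20, adjusted p = 2.04e-08), Itgb4 from 0.339 to 2.23 (median 0.893) to 7.17 to 14.3 (2.99 ± 0.38, adjusted p = 8.73e-07) and Lamb3 from 0.162 to 0.827 to 1.91 to 8.71 (3.75 ± 0.54, adjusted p = 6.09e-06). Itgb3 (2.20 ± 0.43, adjusted p = 0.000277) and Itga2 (1.90 ± 0.42, adjusted p = 0.00103) rose without overlap as well. The other 16 had log2 fold changes of 0.63 to 3.87. Endothelial, mural and macrophage markers each had 5 members called higher at E16.5 (of 7, 8 and 6) and none lower, as did 5 of 6 glial markers. Of mesenchymal markers 5 of 7 were higher and 2 lower, with sums of 2660 to 5305 CPM at E13.5 and 7522 to 13522 at E16.5, and 3 of 4 cartilage markers were higher. Their part was not tested.

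In the ONL, 21 members rose between E13.5 and E16.5 outer ONL and 2 fell, with 41.9% of all genes called (21.9% higher, 20.0% lower). By label the counts were 18 and 3, with 6810 of 19332 genes called (3511 higher, 3299 lower). Called in the same direction in both were 18 members. Itgb4 rose from 0.524 to 1.80 CPM to 27.1 to 35.8 (log2 fold change 4.60 ± 0.44, adjusted p = 1.96e-09) and Itga7 from 9.73 to 20.2 to 238 to 381 (4.37 ± 0.49, adjusted p = 2.98e-08). For both, every E16.5 library was over 10 times the highest E13.5 library.

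Lamb2 rose from 18.9 ± 5.82 to 118 ± 18.4 CPM (log2 fold change 2.62 ± 0.23, adjusted p = 4.71e-10) and Lama4 from 138 ± 32.9 to 550.2 ± 82.5 (1.98 ± 0.16, adjusted p = 1.72e-10). Itga2 (3.39 ± 0.49, adjusted p = 1.79e-06) and Itgb3 (2.14 ± 0.48, adjusted p = 0.000563) rose too, and the other 15 had log2 fold changes of 0.36 to 2.90. The pair that fell were Itga3 (-1.13 ± 0.30, adjusted p = 0.00336) and Itga9, from 30.1 ± 9.04 to 15.3 ± 6.27 CPM (-0.99 ± 0.23, adjusted p = 0.000887). All 8 mural cell markers were higher at E16.5, where they summed to 302 to 549 CPM against 89.4 to 128, and all 4 olfactory bulb neuron markers were lower, at 3.03 to 109 CPM summed against 1084 to 1507. Glial markers rose as well, 5 of 6 of them, from 4304 to 6748 to 18406 to 32508 CPM summed. Of mesenchymal markers 4 of 7 rose and 1 fell (1374 to 3115 and 4603 to 8839 CPM summed), and 4 of 7 endothelial and 3 of 4 cartilage markers rose. Their part was not tested. These comparisons of stages share groups with the others at E13.5 and E16.5 and are not independent of them.

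Genes that work with these molecules were followed from lists chosen with earlier results of these data known. Of 8 genes for basement membrane collagens, which form the network that nidogen and perlecan join to laminin, 1 was higher and 2 lower in outer ONL than in olfactory nerve (25.7% of all genes called), and none was higher and 6 lower in inner than in outer ONL (17.7% of all genes called, 7.54% lower). Col4a2 stood at 462 ± 122 CPM in outer ONL and 881 ± 241 in olfactory nerve (log2 fold change -0.99 ± 0.20, adjusted p = 0.0012), and fell to 221 ± 12.3 in inner ONL (-1.04 ± 0.20, adjusted p = 0.00139). Col4a5 went the other way from Col4a2 between outer ONL and olfactory nerve (56.4 ± 16.4 against 30.6 ± 8.99 CPM, 0.82 ± 0.24, adjusted p = 0.0183). Col18a1 was higher in trigeminal nerve (1121 ± 242 CPM) than in olfactory nerve (487 ± 176, log2 fold change -1.12 ± 0.27, adjusted p = 0.00485).

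Of 17 other integrin ligands, 2 were higher and 9 lower in outer ONL than in olfactory nerve, beside 10.3% higher and 15.4% lower over all genes. Vtn, which encodes vitronectin, stood at 1446 ± 308 CPM in outer ONL, 42.3 ± 65.5 in olfactory nerve and 20.04 ± 2.80 in trigeminal nerve (log2 fold change 5.03 ± 0.92 against olfactory nerve, adjusted p = 0.000588). Vcam1, a ligand of the Itga4 product, stood at 97.5 ± 30.4 against 18.5 ± 2.64 (2.33 ± 0.19, adjusted p = 2.13e-07). Tnn, a tenascin, was lower in outer ONL (3.08 ± 1.94 against 38.5 ± 6.37, -3.69 ± 0.53, adjusted p = 5.62e-05), as was Thbs1, which encodes thrombospondin 1 (16.2 ± 11.2 against 151 ± 39.2, -3.27 ± 0.46, adjusted p = 5.25e-05). Against trigeminal nerve, where 2 ligands were higher and 10 lower in outer ONL (15.1% and 16.2% of all genes), Tnc was lower (31.3 ± 17.5 against 382 ± 5.77 CPM, log2 fold change -3.58 ± 0.38, adjusted p = 1.4e-06).

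At E13.5, Vtn already separated ONL from nerve, at 183 ± 42.5 and 2.67 ± 3.87 CPM (log2 fold change 5.98 ± 0.73, adjusted p = 1.09e-07), with 5 of 17 ligands higher and 5 lower in ONL (15.4% and 16.1% of all genes). In inner ONL the guidance protein gene Reln stood at 348 ± 116 CPM, against 51.0 ± 42.4 in outer ONL (2.79 ± 0.54, adjusted p = 0.00165). That move went with the olfactory bulb neuron markers given above. Between E11.5 and E13.5 nerve, 10 ligands rose and 4 fell (20.2% and 16.4% of all genes), led by Thbs2 (1.37 ± 1.09 to 109.6 ± 21.2 CPM, 6.34 ± 0.47, adjusted p = 1.4e-11).

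Of 24 tested genes for integrin adaptors and kinases, 2 were higher and 7 lower in outer ONL than in olfactory nerve (25.7% of all genes called), 1 and 8 against trigeminal nerve (31.3%), and 1 and 2 in olfactory against trigeminal nerve (26.9%). Src, a tyrosine kinase that acts with focal adhesion kinase, was higher in outer ONL (63.7 ± 10.2 CPM) than in olfactory nerve (19.5 ± 7.87, log2 fold change 1.64 ± 0.23, adjusted p = 5.42e-05) and trigeminal nerve (18.8 ± 3.82, 1.79 ± 0.26, adjusted p = 4.16e-05). Tns1, which encodes the adaptor tensin 1, was lower in outer ONL (41.4 ± 12.8) than in trigeminal nerve (150.0 ± 20.3, -1.82 ± 0.25, adjusted p = 2.07e-05). Ilk, used by nearly every cell, had at most 3 counts in any library outside trigeminal nerve and 3 to 8 there, so its count in this table cannot be read as its level.

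Of 25 tested genes for dystroglycan partners and for the enzymes that glycosylate it, 3 were higher and 5 lower in outer ONL than in olfactory nerve, a share near the 25.7% of all genes called. Dmd, which encodes dystrophin, stood at 106 ± 8.37 against 40.9 ± 6.77 CPM (log2 fold change 1.32 ± 0.13, adjusted p = 1.4e-06), and Pomt1, which starts the O-mannosyl glycan, at 76.4 ± 14.1 against 39.7 ± 6.92 (0.88 ± 0.16, adjusted p = 0.000462). Dtna, which encodes a dystrobrevin, was lower (11 ± 3.17 against 45.8 ± 17.6, -2.12 ± 0.29, adjusted p = 3.17e-05). Prx, which encodes periaxin, a partner of the dystroglycan complex in myelinating Schwann cells that is also among the myelin markers above, stood at 160.1 ± 10.8 CPM in trigeminal nerve and 4.53 ± 0.872 in outer ONL (-5.11 ± 0.29, adjusted p = 1.78e-09).

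Shown next are start regions of the 15 members called higher in trigeminal nerve than in olfactory nerve. They were picked by that call, so their common direction is the rule of choice and not a result. In the same comparison 6 members were called the other way and 12 were not called. Of the 15, 8 have an entry in the RefSeq table (GRCm38.p6), and for the 4 whose 250 upstream bases overlap no annotated exon the window is printed, 5′ to 3′ on the gene's strand. They lie at chr2:79255176-79255425 (Itga4, plus strand), chr2:83724147-83724396 (Itgav, plus strand), chr8:128685404-128685653 (Itgb1, plus strand) and chr9:108263959-108264208 (Dag1, minus strand). Capitals mark CCAAT and GGGCGG, searched on both strands.
Itga4: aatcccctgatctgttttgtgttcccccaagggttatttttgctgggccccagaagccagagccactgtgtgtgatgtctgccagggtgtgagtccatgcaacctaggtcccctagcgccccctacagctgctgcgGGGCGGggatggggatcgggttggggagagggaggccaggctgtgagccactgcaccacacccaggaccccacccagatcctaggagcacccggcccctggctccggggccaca
Itgav: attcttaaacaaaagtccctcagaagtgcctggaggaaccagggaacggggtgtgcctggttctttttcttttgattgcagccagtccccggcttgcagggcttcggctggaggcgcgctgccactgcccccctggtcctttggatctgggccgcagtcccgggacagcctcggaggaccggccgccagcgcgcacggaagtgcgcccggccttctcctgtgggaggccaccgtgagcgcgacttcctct
Itgb1: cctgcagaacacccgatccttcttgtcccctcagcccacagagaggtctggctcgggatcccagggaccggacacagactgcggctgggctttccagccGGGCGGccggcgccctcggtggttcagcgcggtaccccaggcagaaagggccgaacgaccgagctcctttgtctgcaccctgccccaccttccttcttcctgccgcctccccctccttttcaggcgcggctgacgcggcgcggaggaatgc
Dag1: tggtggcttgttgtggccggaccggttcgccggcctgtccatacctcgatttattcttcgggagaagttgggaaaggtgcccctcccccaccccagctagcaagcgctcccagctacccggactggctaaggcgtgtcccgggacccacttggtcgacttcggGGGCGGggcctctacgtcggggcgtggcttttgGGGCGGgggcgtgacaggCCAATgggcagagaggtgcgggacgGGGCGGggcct
CCAAT was found in 33.85% and GGGCGG in 32.74% of 32851 windows of this length. Among the 8 genes with an entry, 4 held CCAAT (Dag1, Lamb1, Itgb8 and Nid1) and 6 held GGGCGG, and among the 15 other members with an entry 1 and 5 did. The printed Dag1 window holds 1 CCAAT and 3 GGGCGG, Itga4 and Itgb1 each hold 1 GGGCGG, and Itgav holds neither. These are matches of letters, and no binding was measured here.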

How the data were processed

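RNA was amplified by SMART-seq from laser-microdissected pieces of mouse embryonic nerve. Per the labels and the study's methods, the authors checked reads with FastQC, aligned them to mm10 with TopHat2 2.1.0 and counted them per gene with HTSeq. The deposited table holds raw counts of 47729 genes in 31 libraries, not normalized, and strand use in counting is not given in the sources used here.

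Counts were tested with edgeR 4.0.16 (R 4.3.3) by the quasi-likelihood method, with TMM scaling, filterByExpr and Benjamini-Hochberg adjustment over all genes tested. Comparisons within E16.5 used a fit of 15 libraries by label (17800 genes). Comparisons with earlier stages used all 31 libraries (19332 genes), because the labels of 10 early libraries went against the study's mean table, and repeated the fit by label. Calls had an adjusted p under 0.05. The fit was tested on simulated data with known fold changes. Levels are CPM over TMM-scaled totals, per kilobase of merged exon of the GRCm38 annotation where genes are compared. A count of 3 was taken as the floor. This floor covers counting error only, whereas SD and SE include the spread between libraries. Tables and figures were made with Python 3.11.15, pandas 2.3.3, NumPy 2.4.6, SciPy 1.17.1 and matplotlib 3.10.9.

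The members and lists were chosen with earlier results of these data known. Fold changes are given for called genes whose higher group averaged 5 CPM or more, at most 6 members in each direction by size, and at most 2 genes per direction of each list. Values in every library are given for at most 16 members so named at E16.5 with a log2 fold change of at least 1 in size. Alternatives were DESeq2 1.42.0, other scalings, filters, groupings, sets of libraries and thresholds, leaving out each library, and the replicate number as a block. At E16.5, same-numbered olfactory nerve and outer ONL libraries deviated together (correlations 0.145 to 0.299 over 17800 genes, 4 of 4 over 0.1, against -0.259 to 0.252 for other pairs), whereas the other pairs of groups did not all exceed 0.1. Fold changes and p-values deposited or published by the authors were not used.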

Additional observations from a re-analysis of the deposited data

Results flagged for a closer look

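Each group of 4 to 10 libraries was searched, gene by gene, for a lowest or highest library far from the rest (Dixon's test at 0.05). Of 181 such groups 12 held one, in 11 genes, and chance gives about 1 in 20.

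Among laminin chains at E16.5, Lama2 had 29.1 CPM in outer ONL replicate 1 (58.4 to 59.3 in the others), Lama4 563 CPM in olfactory nerve replicate 3 (389 to 407), Lamb1 164.9 CPM in inner ONL replicate 3 (247 to 256) and Lamb2 90.7 CPM in outer ONL replicate 2 (123 to 129). Among integrins at E16.5, Itga5 had 81.2 CPM in outer ONL replicate 3 (51.8 to 55.8) and Itga7 41.7 CPM in olfactory nerve replicate 4 (69.7 to 72.4). Lama2 and Itga7 were called between outer ONL and olfactory nerve, and in both the groups did not overlap with the far library included.

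At earlier stages, the E13.5 ONL group as in the mean table held Lamc1 at 80.1 CPM in the library labelled E11.5 olfactory nerve 2 (107 to 117 in the others), and Hspg2 at 13.9 (32.6 to 36.2) and Itgb3 at 35.1 CPM (8.48 to 13.1) in the library labelled E11.5 olfactory nerve 1. In E13.5 olfactory nerve, Lamb2 had 25.8 CPM in the library labelled E13.5 olfactory nerve 3 (34.1 to 36.6) and Itga3 14.98 CPM in that labelled E13.5 olfactory nerve 2 (7.96 to 8.90). In E11.5 olfactory nerve, Itgb4 had 6.73 CPM in the library labelled E13.5 ONL 3 (1.26 to 1.65).

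The difference between ONL and olfactory nerve changed from E13.5 to E16.5 by a tested log2 difference of 0.92 for Lama4, -1.35 for Itga3 and 0.87 for Itgav in edgeR's fit. No cause was tested for any of these values.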

How the results depend on the processing

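The number of members called moved by over 1.5 times in a few settings, and the cause was not tested. In a fit of all 31 libraries by label, 11 members were called between outer ONL and olfactory nerve and 10 between inner and outer ONL. All-gene calls fell as well, to 3105 and 1658 of 19332 genes, from 4572 and 3147 of 17800 in the main fit. With early libraries grouped by label, 8 were called between E13.5 ONL and nerve, 9 between E11.5 and E13.5 nerve, and 6 for the change of the ONL-nerve difference. A required log2 fold change of at least 1 in size left 7 for inner against outer ONL, 9 for E13.5 ONL against nerve, 13 for E13.5 against E11.5 nerve and 1 for the change of the difference. Of all genes it left 2119 of 17800, and then 3667, 3920 and 1738 of 19332, in the same order.

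Without 1 library at a time, counts were 14 to 20 for outer ONL against olfactory nerve, 22 to 24 for outer ONL and 17 to 21 for olfactory nerve against trigeminal nerve, 12 to 16 for inner against outer ONL, 14 to 19 for E13.5 ONL against nerve, 18 to 20 for E13.5 against E11.5 nerve, 21 to 22 for E16.5 against E13.5 nerve, 22 to 24 for outer ONL against E13.5 ONL and 2 to 5 for the change of the difference, with 5 without the library labelled E13.5 olfactory nerve 3. All-gene calls in these fits, in the same order, were 3784 to 4457, 4678 to 5684, 3790 to 4395 and 2307 to 3025 of 17545 to 18494 genes within E16.5. With earlier stages they were 5435 to 5901, 6330 to 7010, 4116 to 5382, 7104 to 8115 and 1868 to 2476 of 19204 to 19329 genes.

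By label, 3 printed fold changes between E11.5 and E13.5 turned sign: Itga1 to -0.013 (adjusted p = 0.986), Itga7 to -0.44 (adjusted p = 0.618) and Itga9 to 0.51 (adjusted p = 0.134). Over all alternatives, 1227 values of printed fold changes kept direction and call, 53 lost the call and 3 turned. The lost calls not given above included those of Lama3 and Lama5 between outer ONL and olfactory nerve in fits of all 31 libraries (adjusted p = 0.0688 and 0.0882 with early libraries as in the mean table, 0.169 and 0.151 by label), and that of Itgb3 between the ONL layers (0.127 and 0.209).

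With the replicate block at E16.5 the counts were 18, 23, 20 and 15 for outer ONL against olfactory nerve, outer ONL against trigeminal nerve, olfactory against trigeminal nerve and inner against outer ONL, and of the printed fold changes that of Itga3 between olfactory and trigeminal nerve lost its call (1.02, adjusted p = 0.0699). All-gene calls with the block were 4753, 5456, 4561 and 3198 of 17800, in the same order. Where earlier stages enter, no paired analysis was possible because the replicate numbers run within the labelled groups, which the mean table splits.

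Depth limits genes of a few CPM (Lamb3, Lamc3, Itgb6 and Itga10), and early groups are limited by pieces that shared embryos.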
